A study of Pleurotus tuoliensis with 9 samples.

Results

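The unigenes described here are those whose best protein match names an enzyme of the antioxidant and thiol redox systems in mycelia of *Pleurotus tuoliensis*, an edible mushroom of the oyster mushroom genus. A unigene is a gene model that the authors assembled from RNA-seq reads and named by its closest match in a protein database. Members were picked by words in that name, namely catalase, superoxide dismutase, peroxiredoxin, thioredoxin, glutaredoxin, glutathione, NADH:flavin and thiol. Names that also held protein disulfide, mitochondri, thiolase or ubiquitin were dropped. Of 13953 unigenes, 19 held a chosen word, 4 of these were thiolases, and 15 remained. All 15 had a nonzero count in every library and so were among the 13018 unigenes tested.

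Catalases split hydrogen peroxide into water and oxygen. Thioredoxins and glutaredoxins reduce disulfide bonds in other proteins, the former recharged with electrons from NADPH by thioredoxin reductase and the latter by glutathione, the main small thiol of most cells. Oxidants that form in heated cells are among the substrates of these enzymes, and fungal mycelia carry further peroxide-using enzymes that act on lignin and other substrates outside the hyphae.

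The study asked how mycelia of the strain Zhongnong No.1 respond at the level of transcripts to continuous heat of different strength. Every plate of potato dextrose agar was kept dark at 25 °C for 9 days. From day 10 the control group (CK) stayed at 25 °C. The moderate heat group (MHT) was held at 32 °C and the severe heat group (SHT) at 36 °C. Mycelia were scraped at the end of this continuous treatment. The paper dates its plate images from before the heat to day 9 and those from after it to day 13. Each group had 3 libraries from separate plates that were all inoculated from the same starting plate, which makes them separate cultures of a shared inoculum. No gene was altered in any group, and no list of marker genes for mycelium was checked. In such bulk samples, fewer hyphae that express a gene and less RNA of it per hypha cannot be told apart.

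The libraries held 3925786 to 6180053 counts, and levels are given as CPM, counts relative to library size, scaled by the TMM method, whose factors ran from 0.870 to 0.942 in CK, 0.981 to 1.02 in MHT and 1.07 to 1.11 in SHT. Differences are log2 fold changes ± their standard error from edgeR's quasi-likelihood test, with p-values adjusted over all unigenes tested. A unigene was called, and is said to have risen or fallen, at an adjusted p under 0.05 with an absolute log2 fold change above 1. Some libraries stood apart from their group. By Euclidean distance of log2 CPM over all tested unigenes, MHT replicate 3 lay 75.6 and 71.3 from the other MHT libraries, which were 43.4 from each other, and 61.2 from SHT replicate 2. SHT replicate 2 lay 65.9 and 67.6 from the other SHT libraries, which were 43.0 apart. Named results whose call changes without either of these libraries are given with and without it. Unigene lengths are not used here, so levels are compared between groups and not between unigenes.

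The names cover the redox systems unevenly. The word catalase matched 2 unigenes, thioredoxin 3, glutaredoxin 1, glutathione 2 and NADH:flavin 3, which makes 11 members of the named enzyme families. Superoxide dismutase and peroxiredoxin each matched 0 descriptions, and no member is described as a glutathione transferase. As 10740 of the 13953 descriptions say only hypothetical, uncharacterized or unnamed, such enzymes can be present under another name. The remaining 4 members came in through the word thiol and belong to other chemistry. They are a heme-thiolate peroxidase, 2 thioesterases of the thiol ester dehydrase-isomerase fold, and a protein that places sulfur in transfer RNA. The best match was *Pleurotus eryngii* for 10 members and another mushroom for 3, while the matches of gene_10321 and gene_9536 were to the willow *Salix suchowensis*, as for 607 unigenes of the whole table.

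Of the 15 members, 4 were called in at least 1 comparison, beside 24.9% of all tested unigenes. In SHT&CK the NADH:flavin oxidoreductase gene_1922 and the thioesterase gene_13504 rose and the heme-thiolate peroxidase gene_20268 fell. In MHT&CK the catalase fragment gene_6329 fell, and in SHT&MHT gene_1922 rose. The 3 comparisons share their groups, so these calls are not independent of each other.

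The members called are few in number, and stand beside the share of all tested unigenes called in the same way. In MHT&CK 0 members rose and 1 fell, against 8.17% of all tested unigenes called (3.85% higher and 4.32% lower), and DESeq2 called 0 higher and 1 lower. In SHT&CK 2 members rose and 1 fell, against 21.7% called (10.8% higher and 10.9% lower). In SHT&MHT 1 rose and 0 fell, against 5.65% called (2.79% higher and 2.87% lower), and DESeq2 called 2 higher and 0 lower. At an unadjusted p under 0.05 in edgeR, 3 members were higher and 2 lower in MHT&CK (15.9% and 15.1% of all tested unigenes), 7 higher and 2 lower in SHT&CK (25% and 24.8%) and 2 higher and 1 lower in SHT&MHT (14.8% and 14.2%). Without a minimum fold, an adjusted p under 0.05 was reached in MHT&CK by 1 member higher and 1 lower (14.9% of all tested unigenes, 7.5% higher and 7.41% lower), in SHT&CK by 4 higher and 2 lower (40.1%, of which 20.4% higher and 19.7% lower) and in SHT&MHT by 1 higher and 0 lower (9.75%, of which 4.82% higher and 4.93% lower). With 15 members, 1 or 2 called in a direction is a count near the background.

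Mean levels were highest at 36 °C for most members, though few of these passed the test. The mean CPM was highest in SHT for 11 members, in CK for 3 and in MHT for 1. This was not counted over all tested unigenes. The 11 include gene_22528 and gene_22529, which may be 1 gene split in the assembly. They also include gene_13504, gene_9536 and gene_1184, which came in through the word thiol. The log2 fold change was positive for 12 of 15 members in SHT&CK (50.5% of all tested unigenes) and for 13 in SHT&MHT (49.8%), but for only 8 in MHT&CK (49.9%). The median over the members was 0.07 in MHT&CK, 0.42 in SHT&CK and 0.35 in SHT&MHT, beside −0.002, 0.01 and −0.002 over all tested unigenes. In SHT&CK all 3 SHT libraries lay above all 3 CK libraries for 7 members (27.6% of all tested unigenes) and below them for 2 (28.3%). The same counts were 3 (18.4%) and 2 (19.1%) in MHT&CK and 2 (15.4%) and 0 (12.6%) in SHT&MHT. Fewer members thus separated MHT from CK, or SHT from MHT, than separated SHT from CK, as among unigenes at large.

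**Figure D1:**
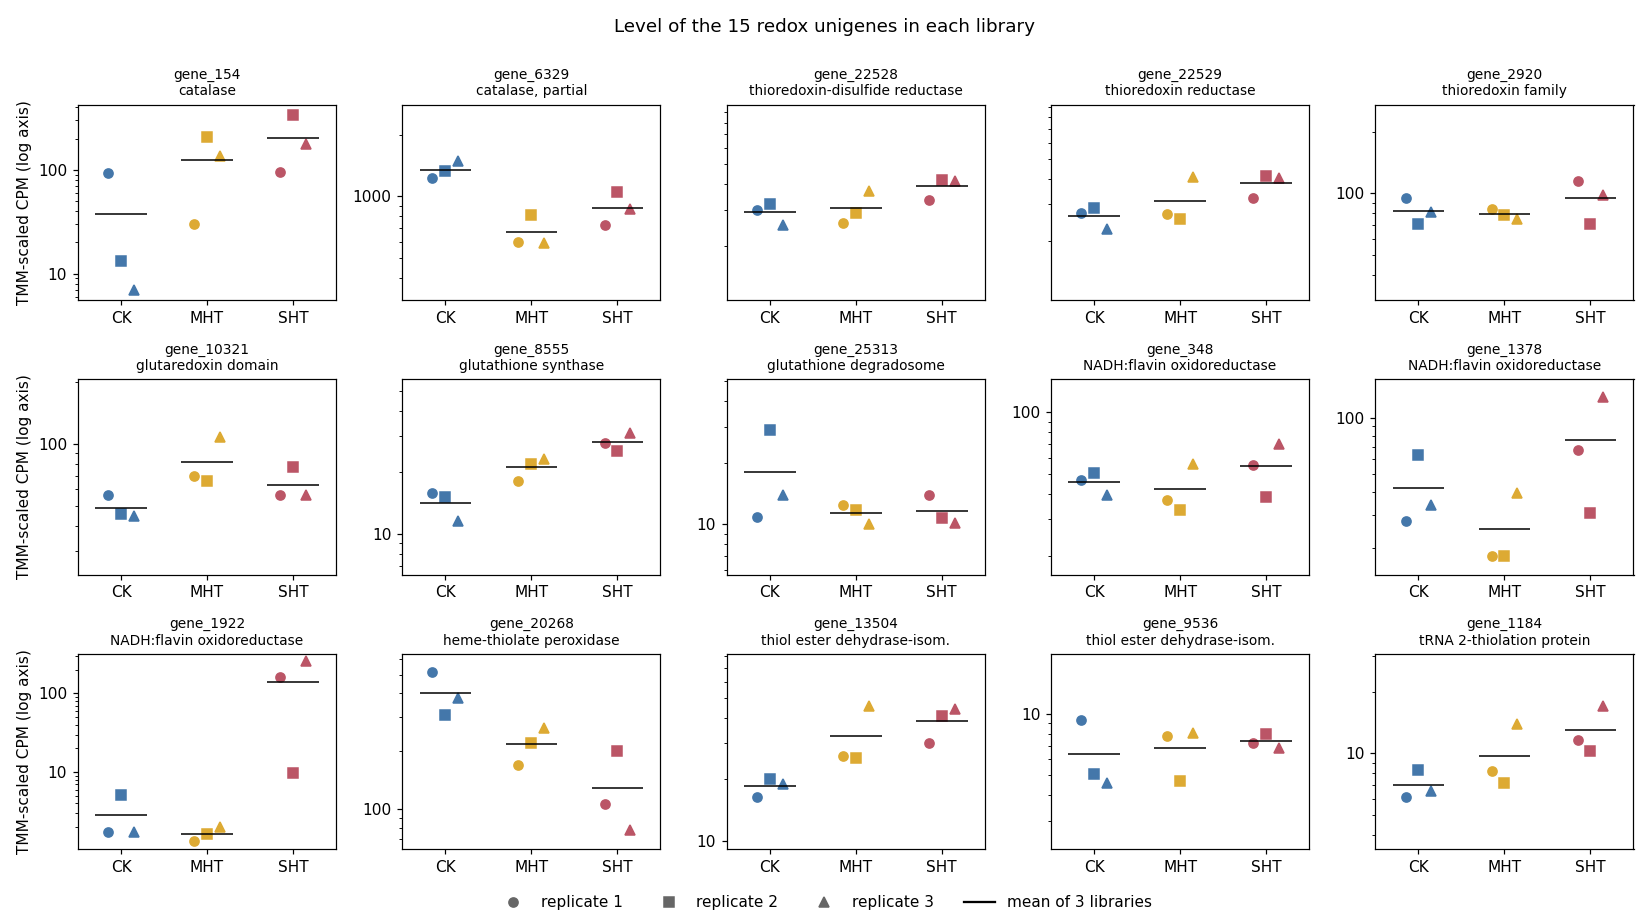
Level of each of the 15 redox unigenes as TMM-scaled CPM on a log axis, with 1 panel per unigene, 1 point per library (marker shape for the replicate number) and a bar at the mean of 3 libraries. Gene_8555 steps up from CK to MHT to SHT without overlap, gene_20268 has the opposite order of means, and gene_154 and gene_1922 have the widest spread within a group.

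The 2 catalase unigenes differed in what passed the test, as 1 fell at 32 °C and the other was not called. Gene_6329, a partial catalase matched to *Lentinus sajor-caju*, was at 1227, 1323 and 1486 CPM in CK replicates 1 to 3, at 601, 808 and 588 in MHT and at 723, 1049.8 and 871 in SHT. Every CK library was above every heated library, while MHT and SHT overlapped. In MHT&CK it fell by a log2 fold change of −1.02 ± 0.219 (adjusted p = 0.00949), just past the fold threshold. It came inside the threshold without CK replicate 3 (−0.94, adjusted p = 0.0486), without MHT replicate 1 (−0.95, adjusted p = 0.0367) and without MHT replicate 3 (−0.93, adjusted p = 0.0200). In SHT&CK it was −0.61 ± 0.217 (adjusted p = 0.0407), under the fold threshold, and in SHT&MHT 0.41 (adjusted p = 0.234).

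The other catalase, gene_154, was chosen for description after its values were seen, as it had the second-largest spread among the members. It was at 93.7, 13.1 and 6.99 CPM in CK, at 30.2, 207 and 137 in MHT and at 96.0, 340.2 and 179 in SHT. CK replicate 1 alone was 13.4 times as high as CK replicate 3, and reached into the range of the heated libraries. SHT lay above CK without overlap, though narrowly at its lowest library. The log2 fold change was 1.74 ± 1.02 in MHT&CK (adjusted p = 0.286), 2.46 ± 1.04 in SHT&CK (adjusted p = 0.0918) and 0.72 in SHT&MHT (adjusted p = 0.656), and gene_154 was not called. Without CK replicate 1 it passed in MHT&CK at 3.65 (adjusted p = 0.0256) and in SHT&CK at 4.36 (adjusted p = 0.00492), and without MHT replicate 2 the MHT&CK value was 1.15. The within-group SD of its log2 CPM, pooled over groups, was 1.49, at the 99.9th percentile of all tested unigenes, whose median was 0.294. Gene_6329 was at the 30.0th percentile of the same measure.

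The thioredoxin system was held by 3 members. Thioredoxin reductase, the flavoenzyme that keeps thioredoxin reduced with NADPH, is named by the neighbouring unigenes gene_22528 (thioredoxin-disulfide reductase) and gene_22529 (thioredoxin reductase). Gene_22528 was at 299, 321 and 254 CPM in CK, at 257, 289 and 369 in MHT and at 337, 419 and 414 in SHT. Gene_22529 was at 272, 288 and 228 in CK, at 269, 255 and 409.8 in MHT and at 323, 414 and 403 in SHT. In both, each SHT library was above each CK library, CK replicate 3 was the lowest of all libraries, and MHT replicate 3 was near the SHT libraries. The log2 fold change in SHT&CK was 0.42 ± 0.192 for gene_22528 (adjusted p = 0.0979) and 0.53 ± 0.214 for gene_22529 (adjusted p = 0.0637), and neither passed. The same unigenes had 0.07 and 0.24 in MHT&CK. Without MHT replicate 3 these became −0.09 and −0.0043.

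As both names belong to the same enzyme and the IDs are adjacent, the counts may belong to 1 gene split in the assembly, and their values are uncertain as separate genes. With the counts of the pair summed, a choice made after the values were seen, the log2 fold change was 0.15 in MHT&CK, 0.47 in SHT&CK and 0.32 in SHT&MHT, with adjusted p of 0.666, 0.0912 and 0.330. Gene_2920, described only as a thioredoxin family protein, ranged from 70.8 to 116 CPM over the 9 libraries, and its log2 fold change was −0.05 in MHT&CK, 0.21 in SHT&CK and 0.26 in SHT&MHT.

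Glutaredoxin was the member whose mean was highest at 32 °C. Gene_10321, a glutaredoxin domain protein of the family that reduces disulfides with glutathione, was at 56.2, 45.3 and 44.3 CPM in CK, at 70.1, 66.0 and 108 in MHT and at 56.6, 77.5 and 56.1 in SHT. Each MHT library was above each CK library, and SHT overlapped with both groups. The log2 fold change was 0.74 ± 0.226 in MHT&CK (adjusted p = 0.0442), under the fold threshold, and 0.38 in SHT&CK (adjusted p = 0.190) and −0.36 in SHT&MHT (adjusted p = 0.301). Leaving out any of the 9 libraries gave 0.49 to 0.88 in MHT&CK.

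Glutathione synthase, which adds glycine in the last step of making glutathione, was ordered by temperature in every library. Gene_8555 was at 15.8, 15.3 and 11.6 CPM in CK, at 18.1, 22.0 and 23.3 in MHT and at 27.8, 25.6 and 31.3 in SHT. Every MHT library exceeded every CK library and every SHT library exceeded every MHT library. Gene_8555 was the 1 member with this order, which 3.05% of tested unigenes had, and 0 members had the reverse order, which 2.91% had. The spread within groups was at the 19.7th percentile of tested unigenes. In SHT&CK the log2 fold change was 0.99 ± 0.206 (adjusted p = 0.00288), just short of the fold threshold, and it was above the threshold without CK replicate 1 (1.06), CK replicate 2 (1.05) or SHT replicate 2 (1.05). It was 0.57 ± 0.207 in MHT&CK (adjusted p = 0.0804) and 0.42 ± 0.198 in SHT&MHT (adjusted p = 0.184).

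The other glutathione member went no such way. Gene_25313 is described as a glutathione degradosome, which in yeast is the complex that breaks glutathione down inside the cell. It ranged from 10.8 to 29.0 CPM in CK, from 10.0 to 12.4 in MHT and from 10.2 to 14.0 in SHT, with CK replicate 2 apart from all other libraries. The log2 fold change was −0.67 in MHT&CK (adjusted p = 0.181) and −0.63 in SHT&CK (adjusted p = 0.134). Without CK replicate 2 these were −0.13 and −0.10.

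**Figure D2:**
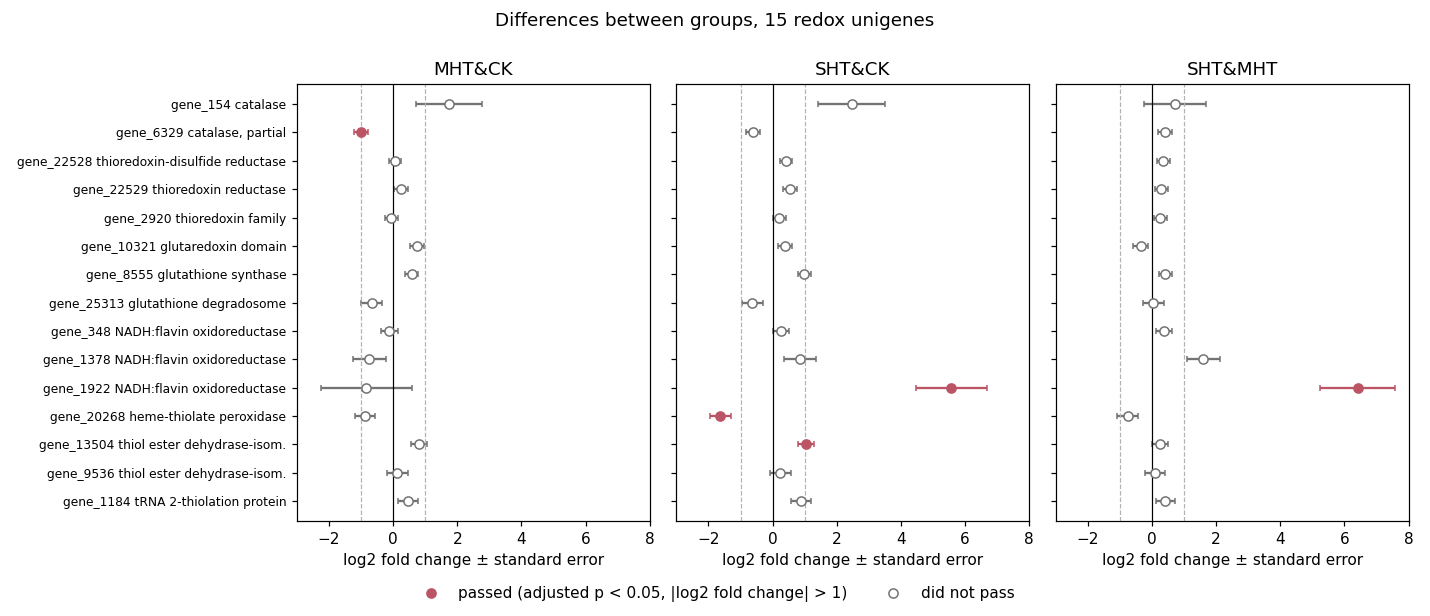
Log2 fold change of the 15 redox unigenes and its standard error in each of the 3 comparisons, with filled points for those past both thresholds and dashed lines at the fold threshold. Gene_1922 stands far to the right in SHT&CK (5.57) and SHT&MHT (6.41), while most members lie between the dashed lines.

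NADH:flavin oxidoreductases are flavoproteins of the family of yeast old yellow enzyme, which reduces reactive carbonyl compounds, and this family held the member with the highest fold change. Gene_1922 was at 1.76, 5.08 and 1.75 CPM in CK, at 1.32, 1.62 and 2.01 in MHT and at 159, 9.85 and 254 in SHT. The raw counts were 6, 24 and 8 in CK, 8, 9 and 10 in MHT and 1036, 52 and 1372 in SHT. The SHT libraries were thus all above the others, but SHT replicate 2 was 25.8 times below SHT replicate 3. Gene_1922 rose 47.5-fold in SHT&CK, a log2 fold change of 5.57 ± 1.11 (adjusted p = 0.00541), and 85.0-fold in SHT&MHT, a log2 fold change of 6.41 ± 1.17 (adjusted p = 0.0156). In MHT&CK it was −0.84 ± 1.41 (adjusted p = 0.732), and −0.10 without CK replicate 2.

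The call in SHT&CK held with any of the 9 libraries left out, at 4.83 without SHT replicate 3, 6.11 without SHT replicate 2 and 6.31 without CK replicate 2. The call in SHT&MHT was lost without MHT replicate 1 (6.26, adjusted p = 0.105), MHT replicate 2 (6.40, adjusted p = 0.0736) or SHT replicate 1 (6.30, adjusted p = 0.0548), and it held at 6.95 without SHT replicate 2 and at 5.67 without SHT replicate 3. Its pooled SD of log2 CPM was 1.52, at the 99.9th percentile. That SHT replicate 2 also stood apart over all unigenes was given above, and its part in this spread was not tested.

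The remaining NADH:flavin members were less extreme, and gene_1378 is given by library because it showed the same order of SHT libraries, a choice made after its values were seen. Gene_1378 was at 27.8, 63.6 and 34.1 CPM in CK, at 18.1, 18.0 and 39.4 in MHT and at 67.2, 30.9 and 129 in SHT. The groups overlapped in each comparison. Its log2 fold change was −0.74 in MHT&CK (adjusted p = 0.361), 0.85 in SHT&CK (adjusted p = 0.202) and 1.59 ± 0.516 in SHT&MHT (adjusted p = 0.0757). Without SHT replicate 2 it passed in SHT&CK (1.21, adjusted p = 0.0397) and in SHT&MHT (1.96, adjusted p = 0.0131), and without SHT replicate 3 the values were 0.22 and 0.97. DESeq2 called it in SHT&MHT (1.58, adjusted p = 0.00945). Gene_348 ranged from 33.4 to 70.3 CPM over the 9 libraries, with log2 fold changes of −0.11, 0.26 and 0.38 in the 3 comparisons.

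The 3 NADH:flavin members shared their highest library within each group. In all 3 unigenes the highest CK library was replicate 2, the highest MHT library was replicate 3 and the highest SHT library was replicate 3, and the lowest SHT library was replicate 2. The lowest library was not shared in CK or MHT. Of all tested unigenes, 9.40% had these same 3 highest libraries, and 32.7%, 43.2% and 32.0% had them in CK, MHT and SHT taken singly. The shared highest libraries are given as a description, since unigenes measured in the same libraries are not independent.

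The unigene next to gene_1922 in ID had a like pattern. Gene_1923, an uncharacterized protein looked at only after its values were seen, was at 2.64, 2.12 and 1.09 CPM in CK, at 0.165, 1.26 and 1.00 in MHT and at 18.7, 3.98 and 37.2 in SHT. As in gene_1922, SHT replicate 2 was the lowest SHT library and still above every CK and MHT library. Gene_1923 rose in SHT&CK (log2 fold change 3.37 ± 0.747, adjusted p = 0.00517) and in SHT&MHT (4.62 ± 0.817, adjusted p = 0.00789). Without SHT replicate 3 these were 2.57 and 3.82, and without MHT replicate 1 the second call was lost (4.10, adjusted p = 0.0503). The neighbour on the other side, gene_1921, an ARM repeat protein, had −0.07 in SHT&CK. Coordinates are not used here, so whether reads of gene_1922 and gene_1923 overlap was not tested.

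**Figure D3:**
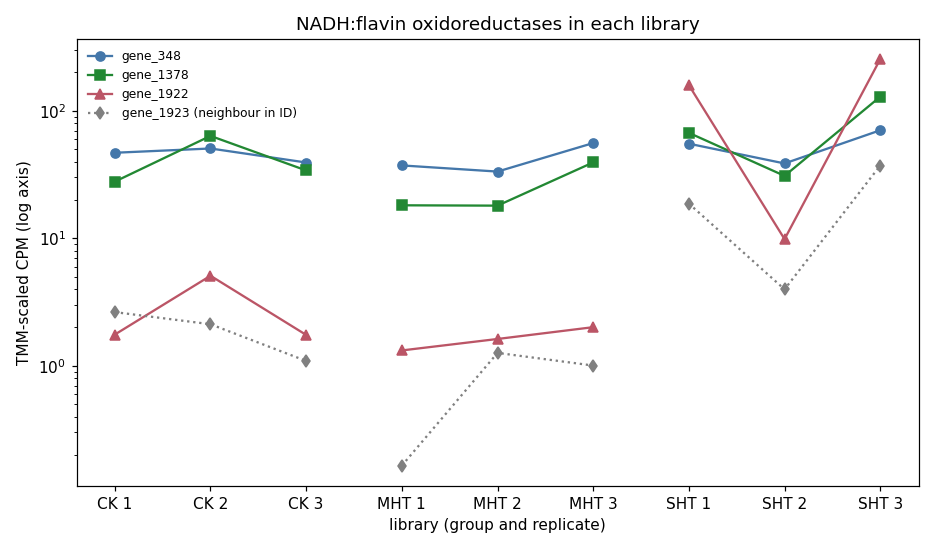
TMM-scaled CPM on a log axis of the 3 NADH:flavin oxidoreductases and of the neighbouring gene_1923 in each of the 9 libraries, with lines joining the libraries of 1 group only to guide the eye. In SHT all 4 unigenes are lowest in replicate 2 and highest in replicate 3, and gene_1922 spans from 9.85 to 254 CPM.

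Heme-thiolate peroxidases are secreted fungal enzymes whose heme iron is held by a cysteine, and which use hydrogen peroxide to oxidise or oxygenate organic substrates. Gene_20268, matched to *Pleurotus ostreatus* PC15, was at 513, 307 and 379 CPM in CK, at 169.6, 220.4 and 264 in MHT and at 107, 202 and 77.9 in SHT. All CK libraries were above all heated libraries, and SHT replicate 2 was within the MHT range. In SHT&CK it fell, at a log2 fold change of −1.63 ± 0.328 (adjusted p = 0.00257), and the call held with any of the 9 libraries left out, from −2.12 without SHT replicate 2 to −1.39 without SHT replicate 3. In MHT&CK it was −0.87 ± 0.322 (adjusted p = 0.0878). In SHT&MHT it was −0.76 (adjusted p = 0.144), and −1.24 without SHT replicate 2 (adjusted p = 0.0144), which passed.

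The thioesterases act on thiol esters such as those of fatty acids with coenzyme A, and are no redox enzymes by name. Gene_13504 was at 16.4, 20.1 and 19.0 CPM in CK, at 26.1, 25.4 and 45.6 in MHT and at 30.2, 40.9 and 43.9 in SHT. Every heated library was above every CK library, while MHT and SHT overlapped. In SHT&CK it rose, at a log2 fold change of 1.04 ± 0.255 (adjusted p = 0.00705), which came under the fold threshold without CK replicate 1 (0.96), SHT replicate 2 (0.99) or SHT replicate 3 (0.93). In MHT&CK it was 0.80 ± 0.256 (adjusted p = 0.0537). Gene_9536, of the same description, ranged from 4.59 to 9.37 CPM, with log2 fold changes of 0.13, 0.24 and 0.10.

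The last member is an enzyme of transfer RNA. Gene_1184, a cytoplasmic tRNA 2-thiolation protein that in yeast helps to replace an oxygen by sulfur at the wobble base, ranged from 6.15 to 8.26 CPM in CK, from 7.21 to 13.9 in MHT and from 10.2 to 17.0 in SHT. In SHT&CK the groups did not overlap and the log2 fold change was 0.88 ± 0.308 (adjusted p = 0.0377), under the fold threshold. Without CK replicate 2 or SHT replicate 2 it passed, at 1.02 and 1.01. In MHT&CK it was 0.47 (adjusted p = 0.336).

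**Figure D4:**
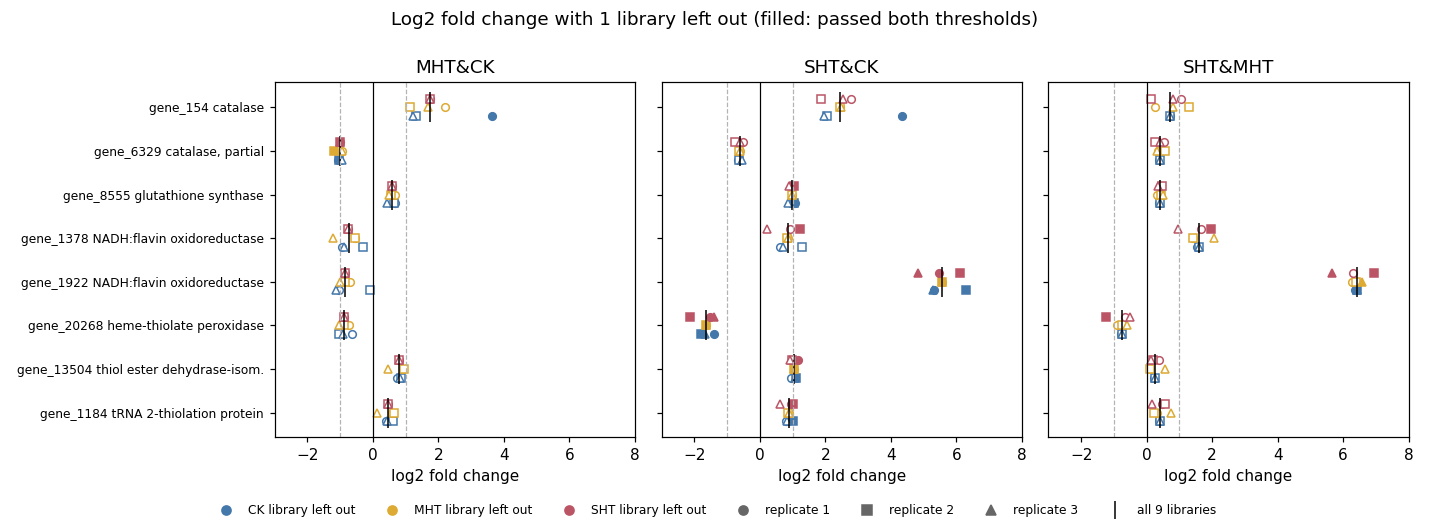
Log2 fold change of 8 of the redox unigenes with each of the 9 libraries left out in turn, with colour for the group and shape for the replicate number of the library left out, filled points for fits past both thresholds and a vertical tick for the fit of all 9 libraries. Gene_154 moves from 2.46 to 4.36 in SHT&CK without CK replicate 1, while gene_20268 stays past both thresholds in SHT&CK in every such fit.

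Summed over the 15 members, the level was 2691, 2565 and 2611 CPM in CK, 1609.8, 2048 and 2149.6 in MHT and 2131, 2748 and 2662 in SHT. All MHT libraries were below all CK libraries, and SHT overlapped with both groups. This sum leans on gene_6329. Without it the sum was 1125 to 1464 CPM in CK, 1009 to 1562 in MHT and 1407 to 1791 in SHT, and CK and MHT overlapped.

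Enzymes around these members were counted from lists matched by name, with members left out. Beside the counts of each list below, 8.17% of all tested unigenes were called in MHT&CK, 21.7% in SHT&CK and 5.65% in SHT&MHT. The lists are short and no set test was run, so their counts are given as description only. Enzymes that can supply reducing power were 4 unigenes, of which 1 rose in MHT&CK, 1 rose in SHT&CK, and 1 rose and 1 fell in SHT&MHT. Gene_686, a glucose-6-phosphate 1-dehydrogenase, the first NADPH-forming enzyme of the pentose phosphate pathway, was at 36.6, 69.7 and 50.0 CPM in CK, at 40.3, 55.9 and 63.9 in MHT and at 94.3, 93.2 and 135 in SHT. All SHT libraries were above all others. It rose in SHT&CK (log2 fold change 1.04 ± 0.259, adjusted p = 0.00776) and in SHT&MHT (1.01 ± 0.257, adjusted p = 0.0297). The call in SHT&CK was lost without CK replicate 1 (0.84) or SHT replicate 3 (0.83), and that in SHT&MHT in 5 of 9 such fits, with values from 0.81 to 1.16 over the 9. Its neighbour in ID, gene_685, has the same description and was not called in any comparison. Gene_685 had a log2 fold change of −0.23 in MHT&CK (adjusted p = 0.547), 0.54 in SHT&CK (adjusted p = 0.0867) and 0.77 in SHT&MHT (adjusted p = 0.0590). Values of the pair are uncertain as separate genes.

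The other called unigene of that list makes NADH rather than NADPH by its name. Gene_23880, an NAD-dependent malic enzyme, which turns malate into pyruvate, was at 52.7, 40.3 and 35.8 CPM in CK, at 169.9, 152 and 127 in MHT and at 54.3, 81.3 and 39.1 in SHT. Only the MHT libraries stood out. It rose in MHT&CK (1.80 ± 0.260, adjusted p = 0.00125) and fell in SHT&MHT (−1.36 ± 0.255, adjusted p = 0.00789), and in SHT&CK it was 0.44 (adjusted p = 0.185).

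Sources of cysteine and glutathione precursors matched 3 unigenes, a gamma-glutamyltranspeptidase and 2 cystathionine beta-synthases. Of these 0 were called in any comparison by edgeR or DESeq2, and 1 was higher in SHT&MHT at an unadjusted p under 0.05. The list for repair of oxidised protein matched 3 protein disulfide isomerases, which form and reshuffle disulfide bonds of newly made proteins in the endoplasmic reticulum, and no methionine sulfoxide reductase or sulfiredoxin by name. Of these, 1 fell in SHT&CK, 1 rose in SHT&MHT and 0 were called in MHT&CK, where 1 was lower at an unadjusted p under 0.05 and 0 were called by DESeq2.

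Gene_8671, a disulfide isomerase precursor, was at 477, 462 and 459 CPM in CK, at 298, 304 and 181 in MHT and at 252, 223 and 215 in SHT. The CK libraries were close to each other and above all heated libraries. It fell in SHT&CK (log2 fold change −1.02 ± 0.207, adjusted p = 0.00257), and was −0.98 without SHT replicate 3, under the fold threshold. In MHT&CK it was −0.83 (adjusted p = 0.0183). Gene_8668, another isomerase, was at 55.1, 50.2 and 56.6 CPM in CK, at 44.7, 39.1 and 36.8 in MHT and at 112, 51.1 and 98.3 in SHT. SHT replicate 2 was within the CK range. Gene_8668 rose in SHT&MHT (1.11 ± 0.249, adjusted p = 0.0177), with the call lost without MHT replicate 1 (1.20, adjusted p = 0.0511), MHT replicate 2 (1.09, adjusted p = 0.0742), SHT replicate 1 (0.88, adjusted p = 0.0731) or SHT replicate 3 (1.01, adjusted p = 0.0875).

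Other peroxidases were 8 unigenes, of which 1 rose in MHT&CK, 2 rose and 2 fell in SHT&CK and 1 fell in SHT&MHT. DESeq2 called 2 higher and 3 lower in SHT&CK, and 0 higher and 2 lower in SHT&MHT. The 2 with the largest changes moved in opposite directions. Gene_7345 is a heme peroxidase by its name here, and the study lists it as a mitochondrial cytochrome-c peroxidase. It was at 2.93, 17.2 and 6.11 CPM in CK, at 34.8, 38.8 and 89.2 in MHT and at 107, 67.2 and 174 in SHT. Every heated library was above every CK library. It rose in MHT&CK (log2 fold change 2.59 ± 0.608, adjusted p = 0.0197) and in SHT&CK (3.69 ± 0.621, adjusted p = 0.00157). The former call was lost without CK replicate 3 (2.37, adjusted p = 0.0630) or MHT replicate 3 (2.02, adjusted p = 0.0978), and without CK replicate 2 the values were 3.54 and 4.64.

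Gene_26672, also a heme peroxidase, was at 334, 239 and 322 CPM in CK, at 178, 172 and 143 in MHT and at 85.6, 104 and 71.3 in SHT, so that all CK libraries were above all MHT libraries and these above all SHT libraries. It fell in SHT&CK (−1.78 ± 0.202, adjusted p = 9.43e-05), from −1.93 to −1.67 over the fits with a library left out. Its values in MHT&CK (−0.86, adjusted p = 0.0128) and SHT&MHT (−0.92, adjusted p = 0.0157) were under the fold threshold. The latter passed without MHT replicate 3 (−1.01, adjusted p = 0.00489) or SHT replicate 2 (−1.07, adjusted p = 0.00922). Together with gene_20268, it is a peroxidase that stood highest at 25 °C, and the pair was put side by side after the values were seen.

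Enzymes that make hydrogen peroxide or other oxidants matched 15 unigenes, of which 13 were tested. Of these 1 rose in MHT&CK, 2 rose in SHT&CK and 0 were called in SHT&MHT. At an unadjusted p under 0.05 in edgeR, 3 were higher and 3 lower in SHT&CK, and 2 were higher and 2 lower in SHT&MHT. DESeq2 called 1 higher and 0 lower in SHT&MHT. The NADPH oxidase A gene_4783 was among the lower ones in SHT&CK (−0.90 ± 0.212, adjusted p = 0.00574), under the fold threshold. The copper radical oxidase gene_422, of secreted enzymes that form hydrogen peroxide, rose by 3.88 in MHT&CK and 2.16 in SHT&CK on the log2 scale (4.82 and 3.10 without CK replicate 2). Gene_12175, an aryl-alcohol oxidase-like protein of enzymes that also form hydrogen peroxide, was at 15.8, 81.8 and 14.8 CPM in CK, at 24.3, 33.9 and 64.7 in MHT and at 335, 53.8 and 368 in SHT. CK replicate 2 was above SHT replicate 2, so the groups overlapped. Its rise in SHT&CK (2.74 ± 0.891, adjusted p = 0.0390) was lost in 7 of the 9 fits with a library left out, with adjusted p up to 0.106, and it was 4.04 without CK replicate 2. It was also lost with no filter on low counts (adjusted p = 0.0563) and in a fit of only the groups compared (adjusted p = 0.112). In SHT&MHT it was 2.63 (adjusted p = 0.0953), and it passed without CK replicate 2 (adjusted p = 0.0236) or SHT replicate 2 (3.10, adjusted p = 0.0264). The adjacent gene_12174 has the same description and was at −0.05 in SHT&CK (adjusted p = 0.970), so values of the pair are uncertain as separate genes.

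Proteins that bind metals matched 3 unigenes, of which 1 fell in SHT&CK and 0 were called in the other comparisons. At an unadjusted p under 0.05 the list had 0 in MHT&CK, 1 higher and 1 lower in SHT&CK and 1 lower in SHT&MHT. DESeq2 called 0 in MHT&CK and 1 lower in SHT&MHT. Gene_8211, a ferroxidase, an enzyme that oxidises iron for uptake, was at 24.9, 84.5 and 60.5 CPM in CK, at 39.1, 52.1 and 35.4 in MHT and at 17.2, 26.0 and 19.6 in SHT. It fell in SHT&CK (−1.45 ± 0.361, adjusted p = 0.00859), although CK replicate 1 was below SHT replicate 2. Another ferroxidase of the list, gene_8213, went the other way in SHT&CK (0.59 ± 0.201, adjusted p = 0.0326), under the fold threshold. The list of redox regulators matched only gene_12051, a subunit of a clathrin adaptor complex that shares the letters AP-1 with a transcription factor, and gives no count of regulators.

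**Figure D5:**
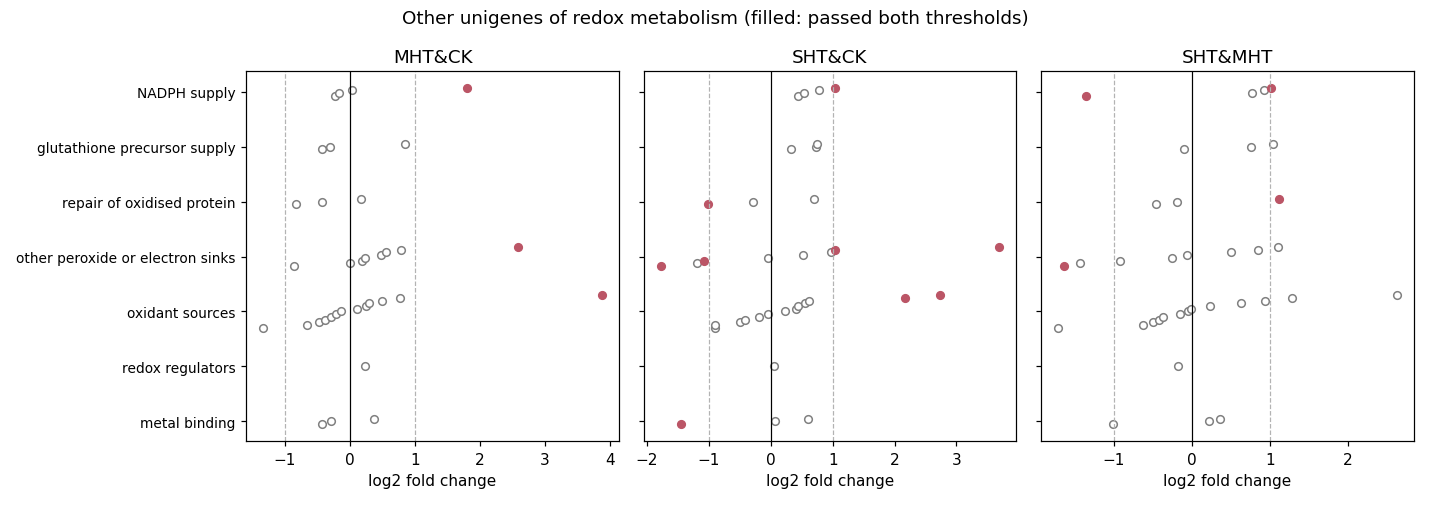
Log2 fold change of the unigenes on 7 lists around the redox enzymes in each comparison, 1 point per tested unigene, filled where both thresholds were passed, with dashed lines at the fold threshold. Rises and falls occur side by side within the peroxidase list, and the highest value in MHT&CK is that of gene_422 (3.88).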

How the data were processed

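RNA-seq libraries of 9 plates were analysed, 3 each of CK, MHT and SHT. The authors used fastp to filter reads, Bowtie2 to take out rRNA, HISAT2 to align to the genome of *P. tuoliensis* strain JKBL130LB, StringTie for assembly and BLASTX for unigene names. For their tool versions and strand setting the sources used here give nothing, so it is not known whether reads of overlapping genes on opposite strands were kept apart. The values the authors deposited are raw counts per unigene, whole numbers without normalization.

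After the zero-count filter of the study, unigenes counted in every library were fitted with edgeR 4.0.16 in R 4.3.3 (TMM scaling, robust quasi-likelihood fit, 1 model of 9 libraries, group only), with Benjamini-Hochberg adjustment across the tested unigenes. The study used DESeq2, which is an alternative here (version 1.42.0). The common biological coefficient of variation was 0.221. Log2 CPM used a prior count of 2. The test was also run on simulated data with known changes above the fold threshold, in SHT only and with the same spread for every unigene. Those data do not cover changes near the fold threshold or unigenes with a wide spread within groups, and no outcome is given here.

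The members and the lists were chosen with earlier results of these data known. Library values were to be given for each called member and, in a family with none called, for the member with the highest mean count, and at most 2 called unigenes per list were to be named. Gene_154, gene_1378 and gene_1923 were added after their values were seen. Alternatives were DESeq2, RLE and upper quartile scaling, other filters on low counts, only the groups compared, the replicate number as a block, no minimum fold, neighbouring unigenes of 1 description summed, and each library left out in turn. The sum of gene_22528 and gene_22529 was added after the data were seen. The precision of each value is limited by the number of plates and, at low counts, by depth. Sequences of the unigenes are not used here.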

Additional observations from a re-analysis of the deposited data

Results flagged for a closer look

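Effects of opposite sign at 32 °C and 36 °C against the same control plates, with a called difference between them, were looked for among the members and the named unigenes of the lists, and 2 were found. Gene_1922, an NADH:flavin oxidoreductase, had a log2 fold change of −0.84 at 32 °C and 5.57 at 36 °C, each against CK, and the difference, which is SHT&MHT, was 6.41 (adjusted p = 0.0156, edgeR's quasi-likelihood test). All 3 SHT libraries were above all MHT libraries. The value at 32 °C itself was not called, its standard error was 1.41, and the call of the difference did not hold without MHT replicate 1 (adjusted p = 0.105), MHT replicate 2 (0.0736) or SHT replicate 1 (0.0548).

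Gene_8668, a protein disulfide isomerase, had −0.42 at 32 °C and 0.69 at 36 °C, and the difference was 1.11 (adjusted p = 0.0177). All 3 SHT libraries were above all MHT libraries. Neither effect against CK was called, and the call of the difference did not hold in 4 of the 9 fits that left out a library (MHT replicates 1 and 2, SHT replicates 1 and 3), with adjusted p from 0.0511 to 0.0875. No test for an outlying value was applied to groups of 3 libraries.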

How the results depend on the processing

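Calls near the fold threshold depended on single libraries, and so did some with larger fold changes. These included gene_1922 (6.41) and gene_1923 (4.62) in SHT&MHT, gene_12175 in SHT&CK (2.74) and gene_7345 in MHT&CK (2.59). The cause was not tested. With no minimum fold, 1 member rose in MHT&CK, 4 rose and 2 fell in SHT&CK, and over all unigenes 976 rose and 964 fell in MHT&CK. In SHT&CK 2656 rose and 2569 fell, and 627 rose and 642 fell in SHT&MHT, since more unigenes can pass. Fitting only the groups compared left 0 members lower in MHT&CK (gene_6329 at −0.9989) and turned gene_25313 in SHT&MHT to −0.0007. It also ended the SHT&MHT calls of gene_686 (0.98) and gene_8668 (adjusted p = 0.0541). It added the SHT&CK call of gene_8555 (1.01, adjusted p = 0.00254), which makes 3 members higher, and SHT&MHT calls of gene_422 (−1.74, adjusted p = 0.0385), gene_12175 (2.58, adjusted p = 0.0445) and gene_8211 (−1.04, adjusted p = 0.0433). DESeq2 called 2 members higher in SHT&MHT, gene_1378 besides gene_1922. With each library left out, members called ran from 0 to 1 higher and 0 to 1 lower in MHT&CK, 1 to 4 higher in SHT&CK, and 0 to 2 higher and 0 to 1 lower in SHT&MHT. Over all unigenes, 318 (without CK replicate 3) to 538 rose in MHT&CK. In SHT&MHT 117 (without MHT replicate 1) to 650 (without MHT replicate 3) rose and 159 (without SHT replicate 3) to 778 (without MHT replicate 3) fell, and 168, 205 and 119 rose without MHT replicate 2, SHT replicate 1 and SHT replicate 3, while 200 and 231 fell without MHT replicates 1 and 2. Uncalled values near 0 changed sign when a library was left out, in MHT&CK gene_348 (−0.37 to 0.020), gene_2920 (−0.15 to 0.08), gene_9536 (−0.059 to 0.52), gene_22528 (−0.094 to 0.18), gene_22529 (−0.0043 to 0.36), gene_686 (−0.15 to 0.30) and gene_12175 (−0.38 to 1.41), and in SHT&MHT gene_9536 (−0.11 to 0.23) and gene_25313 (−0.13 to 0.12). RLE and upper quartile scaling and filterByExpr moved no member or named unigene across a threshold. Deviations of same-numbered libraries correlated at −0.23 to −0.04 for MHT&CK, −0.18 to −0.07 for SHT&CK and −0.14 to 0.44 for SHT&MHT. The 0.44 was between SHT replicate 1 and MHT replicate 1, and pairs of unlike number ran from −0.47 to 0.26. With 3 libraries centred within each group these values are tied to each other, so they cannot show whether libraries were paired. A replicate block left 0 and 1 members higher and lower in MHT&CK, 2 and 1 in SHT&CK and 1 and 0 for SHT&MHT. Over all unigenes it gave 460 and 530, 1356 and 1411, and 305 and 336 in the same order. Among the named unigenes it ended the SHT&CK call of gene_12175 (adjusted p = 0.117) and added SHT&MHT calls of gene_422 (−1.74, adjusted p = 0.0231) and gene_8211 (−1.03, adjusted p = 0.0486), and it changed no other call.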

Other observations

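Some members had a neighbour in ID with like log2 fold changes, and these neighbours were picked out after their values were seen, from 19 member and neighbour pairs. Gene_8554, a hypothetical protein next to the glutathione synthase gene_8555, had 0.61 in MHT&CK, 1.08 in SHT&CK and 0.47 in SHT&MHT, beside 0.57, 0.99 and 0.42 for gene_8555 in this order. Gene_1379, a hypothetical protein next to the NADH:flavin oxidoreductase gene_1378, had −0.71, 0.91 and 1.62 beside −0.74, 0.85 and 1.59. Other neighbours went their own way. Gene_6330, a hypothetical protein next to the catalase gene_6329, had 0.03, −0.01 and −0.03 beside −1.02, −0.61 and 0.41, and gene_20269, next to the heme-thiolate peroxidase gene_20268, had 0.17, 0.03 and −0.14 beside −0.87, −1.63 and −0.76. Whether reads are shared between neighbours was not tested.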
